A study of Oncorhynchus tshawytscha with 15 samples.

Results

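The 100 transcripts described here were higher in the gills of juvenile Chinook salmon exposed to 21° than in those exposed to 12°, 15°, or 25°. On the scale used to choose them, most were back near, or below, their low-temperature level in fish exposed to 25°, and some kept part of their rise. The 100 were chosen by their measured values, out of the 183740 contigs (assembled transcript sequences) of the deposited table. Levels were taken as CPM, the reads of a contig in every 1000000 reads counted in its library. A contig was kept when its mean at 21° was at least 1 CPM, when its lowest library at 21° was more than 1.3 times its highest library at 12°, 15°, or 25°, and when its mean at 25° was at most 1.5 times the mean of its 12° and 15° levels. This left 115 contigs, and the 100 with the largest ratio of the 21° mean to the highest of the 12°, 15°, and 25° means were taken. The 12 libraries of those temperatures therefore set what the contigs look like, and their values are given as a description. The 3 libraries at 18° took no part in the choice.

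The fish were fall-run Chinook salmon, 5 months post hatch, reared at 12° and sampled from the gill arch. The treatment was 3 hr at 12°, 15°, 18°, 21°, or 25° and then 1 hr at 12°. The controls were handled like the heated groups but stayed at 12°. RNA from 11 fish was pooled for each library, with 3 libraries at each temperature and 15 libraries in all. The spread between libraries is thus a spread between pools, not between fish. By the paper's account, 12 of the 33 fish in the 25° pools had become unresponsive or died before the end of the exposure. These fish were sampled at once, without the recovery period. The replicates were run on 3 consecutive days, and the labels do not say which number belongs to which day.

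The gill is the surface across which a salmon takes up oxygen and exchanges ions with the water, and it meets a change in water temperature directly. In fish, as in other animals, acute warming induces chaperones that hold or refold damaged proteins, and it can halt or redirect the transcription of other genes. A transcript that rises with moderate warming need not keep rising toward the upper thermal limit, where transcription, RNA decay, and the survival of cells may all change. The contigs are identified by number only, with no gene name or sequence, so no gene or function is assigned to them below and the gill identity of the samples was not checked against marker genes. In pooled tissue, fewer cells of a type and less RNA per cell cannot be told apart.

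Between 58654252 and 90869450 reads were counted per library. The contigs described here had between 9 and 2895 reads in a library, with a median of 170, and none was without reads in any library. At 25° the libraries differed from the rest as a whole. The median contig among the 75716 with a mean of at least 1 CPM at 21° lay at a log2 value of -0.46, -0.47, and -0.37 relative to its 12° and 15° mean in the 3 libraries at 25°, against values between -0.03 and 0.02 in the other 12 libraries. Results at 25° are therefore given with CPM, on which the choice was made, and also after trimmed mean of M-values (TMM) scaling, which adjusts for such a shift.

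The level of the 100 contigs was higher at each temperature up to 21° and lower again at 25°. Their summed level was 350, 339, and 334 CPM in replicates 1, 2, and 3 at 12°, and 393, 402, and 391 CPM at 15°. At 18°, the temperature not used in the choice, it was 540, 520, and 525 CPM. At 21° it was 708, 726, and 687 CPM, and at 25° it was 295, 322, and 375 CPM. The groups at 12°, 15°, 18°, and 21° did not overlap in this sum, whereas the 25° libraries straddled the 12° libraries, with replicate 3 the highest. Relative to the mean of their own 12° and 15° levels, the contigs stood at a median of 1.07-fold at 15°, 1.45-fold at 18°, 1.91-fold at 21°, and 0.912-fold at 25°.

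**Figure D1:**
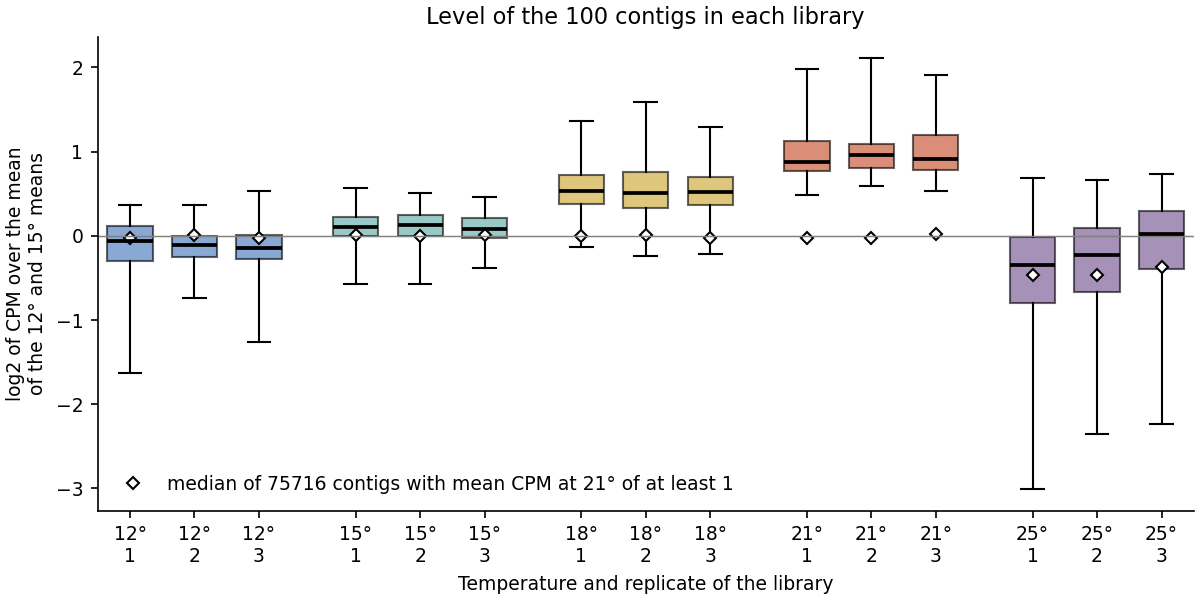
Level of the 100 contigs in each of the 15 libraries, as log2 of CPM over the mean of the contig's 12° and 15° means (y axis), by temperature and replicate (x axis). Boxes show quartiles with the median as a black line, whiskers reach the lowest and highest contig, and white diamonds give the median of the 75716 contigs with a mean of at least 1 CPM at 21°. The medians were 0.53, 0.50, and 0.52 at 18°, 0.87, 0.96, and 0.91 at 21°, and -0.35, -0.23, and 0.02 at 25°.

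The largest ratio belonged to contig_279115, a contig of 546 bp. It had 0.801, 0.835, and 0.321 CPM at 12°, 0.704, 1.06, and 0.887 CPM at 15°, and 1.49, 1.53, and 1.32 CPM at 18°. Its 21° libraries held 3.03, 2.82, and 1.79 CPM, and its 25° libraries 0.578, 0.619, and 1.24 CPM. Its 3 libraries at 18° lay above all 6 libraries at 12° and 15° and below all 3 at 21°, and its 25° libraries lay within or just above the range of the 2 lowest temperatures. The ratio that ranked it was 2.89, against a median of 1.73 and a lowest value of 1.5 among the 100 contigs.

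The next in rank, contig_1807794 (386 bp), was far below its control level at 25°. It had 3.79, 4.42, and 3.80 CPM at 12°, 4.82, 5.18, and 5.18 CPM at 15°, and 7.53, 8.14, and 7.82 CPM at 18°. It reached 12.2, 15.0, and 13.8 CPM at 21° and held 0.809, 1.42, and 1.07 CPM at 25°. No 2 of its 5 temperature groups overlapped, and the order of the groups was 25°, 12°, 15°, 18°, 21°. At 25° it was at 0.243 times its 12° and 15° mean in CPM, and at 0.316 times after TMM scaling.

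The contig after it, simple_contig_64531 (692 bp), had the largest fold at 21°, 3.75-fold over its 12° and 15° mean. It had 1.62, 1.18, and 0.655 CPM at 12°, 1.69, 2.05, and 1.62 CPM at 15°, 3.27, 3.28, and 3.45 CPM at 18°, and 5.52, 6.34, and 4.67 CPM at 21°. Its 25° libraries, at 1.72, 2.32, and 2.11 CPM, lay above all 3 of its 12° libraries and overlapped with its 15° libraries. Its 25° mean was 1.39-fold over its 12° and 15° mean in CPM, close to the limit of 1.5 that the choice allowed, and 1.8-fold with TMM scaling. Of the remaining 7 among the 10 largest ratios, contig_1792496, contig_1803281, simple_contig_40032, contig_1426083, contig_1424957, contig_523569, and contig_488986 stood at 2.43-fold to 3.45-fold over their 12° and 15° mean at 21°.

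**Figure D2:**
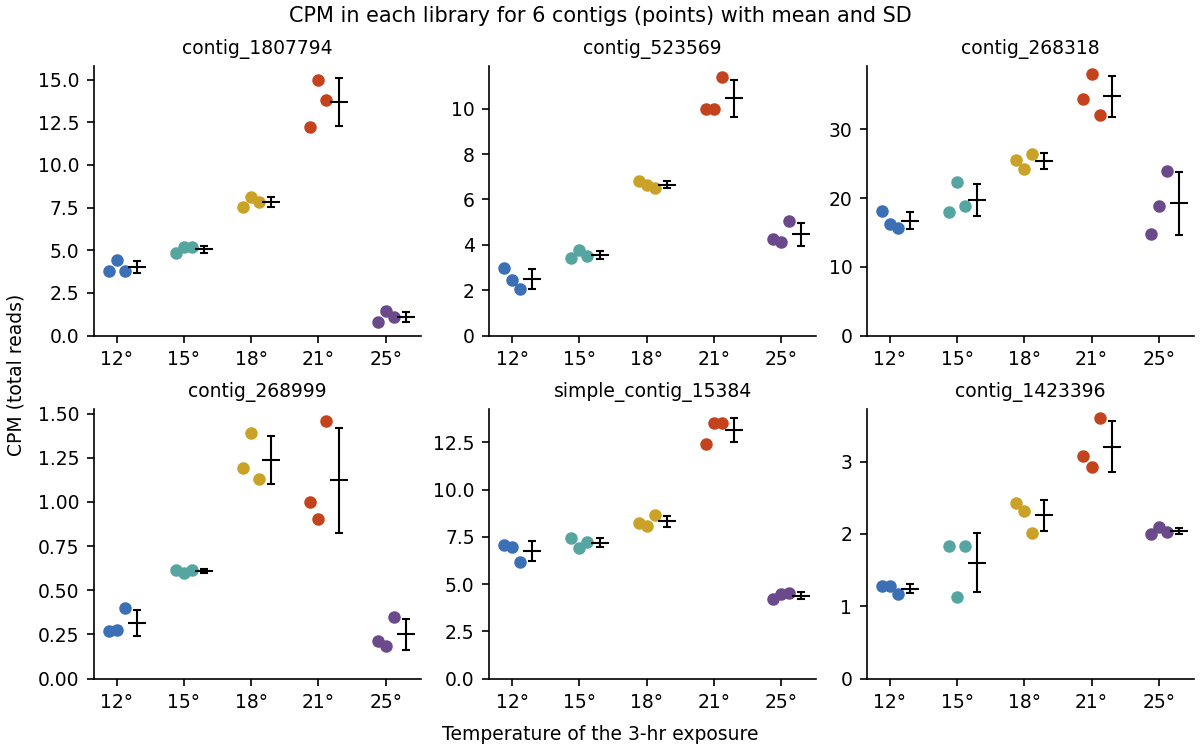
CPM of total reads (y axis, starting at 0) by temperature of the 3-hr exposure (x axis) for 6 of the 100 contigs. Colored points are the 3 libraries at each temperature, and black bars give their mean and SD. contig_1807794 is between 0.809 and 1.42 CPM at 25°, contig_268999 is already at its highest at 18°, and contig_1423396 stays between 2.00 and 2.09 CPM at 25°, above its 12° libraries.

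Whether the rise at 21° was already under way at 18° could be asked of libraries that the choice had not used. However, the 12° and 15° libraries they were compared with had been used. All 100 contigs were higher at 18° than at 12° in the edgeR fit, against 46.5% of the 155951 contigs tested. The median log2 fold change was 0.66 over the 100 contigs, with a median SE of 0.19, and -0.03 over all contigs tested. In 74 of the 100, all 3 libraries at 18° lay above all 6 libraries at 12° and 15°, which held for 3.31% of the contigs tested. Low values at 12° and 15° helped a contig to be chosen, so neither the size of this difference nor these counts are independent of the choice.

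Single contigs seldom passed the threshold for a call at 18°, which includes a limit on the fold change. With the threshold of an adjusted p-value below 0.01 (edgeR quasi-likelihood test, Benjamini-Hochberg adjustment over all contigs tested) and more than 2-fold change, 0 of the 100 were called upregulated at 18° against 12°, where the share over all contigs tested was 0.0269%. The limit is a log2 fold change of 1, and the upper quartile of the 100 was 0.83, so most could not be called at any p-value. A count of 0 beside so low a share does not set the 100 apart. At an unadjusted edgeR p-value below 0.05, 80 of the 100 were higher at 18°, against 5.75% of all contigs tested. The choice of low 12° levels also favors this count. The DESeq2 Wald test, which estimates the spread of each contig in another way, called 9 of the 100 and 0.196% of all contigs. A single edgeR fit over all 15 libraries called 3, as did the fit without replicate 1 of the 12° group.

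The 9 contigs of the 100 with an adjusted p-value below 0.05 at 18° in the edgeR test were contig_1807794, contig_523569, simple_contig_82947, contig_268999, simple_contig_44737, contig_1415128, contig_475492, simple_contig_64943, and contig_1411496. These names were taken after their values had been seen. The share of all contigs tested below that adjusted p-value is not given here, and the choice of low 12° levels favors such p-values. contig_523569 (604 bp) had 2.98, 2.45, and 2.07 CPM at 12°, 3.43, 3.76, and 3.50 CPM at 15°, and 6.81, 6.65, and 6.51 CPM at 18°. It then had between 9.98 and 11.4 CPM at 21° and 4.24, 4.13, and 5.06 CPM at 25°. Each temperature from 12° to 21° lay wholly above the one before it, and the log2 fold change at 18° against 12° was 1.43 ± 0.17 (SE, n = 3 libraries per group, edgeR adjusted p = 0.0232). contig_1807794 had a log2 fold change of 0.99 ± 0.11 (SE) in the same comparison, with the same edgeR adjusted p of 0.0232.

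The size of the 18° step varied among the contigs. On the log2 scale, the level at 18° had covered a median of 55.3% of the rise from the 12° and 15° mean to 21°, with quartiles of 46.1% and 64.9%. The 3 libraries at 18° gave medians of 58.0%, 56.6%, and 54.6% (SD 1.75). In 98 contigs the 18° mean lay between the 12° and 15° mean and the 21° mean, and in 80 all 3 libraries at 18° lay below all 3 at 21°, which held for 7.14% of the contigs tested. The choice took high 21° libraries and low 12° and 15° libraries, and the share divides by the rise between them. The shares of the rise, and both counts, are therefore fixed in part by the choice. No share over all contigs is given for the 98.

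**Figure D3:**
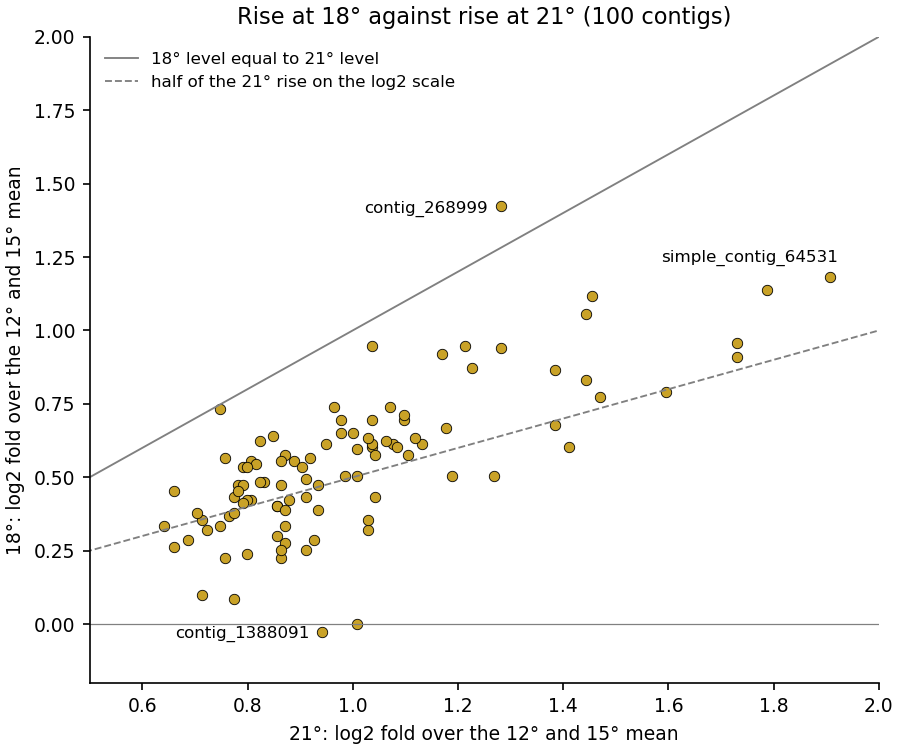
Log2 fold over the 12° and 15° mean at 18° (y axis) against the same at 21° (x axis), with 1 point for each of the 100 contigs. The solid line marks equal levels at 18° and 21° and the dashed line 50% of the 21° rise, which 67 contigs reached or passed. contig_268999 lies above the solid line and contig_1388091 below 0. The 21° values and the 12° and 15° mean were used in the choice.

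At one end of this range, 9 contigs had covered more than 75% of the rise at 18°. contig_268999 (1525 bp) had 0.267, 0.278, and 0.398 CPM at 12°, 0.616, 0.596, and 0.614 CPM at 15°, and 1.19, 1.39, and 1.13 CPM at 18°. At 21° it had 1.00, 0.906, and 1.46 CPM, and at 25° 0.215, 0.186, and 0.351 CPM. Its 18° and 21° libraries overlapped, and its 18° mean exceeded its 21° mean, which was the case for none of the other 99. Its log2 fold change was 2.00 ± 0.24 (SE, edgeR adjusted p = 0.0261) at 18° against 12°, the largest of the 100. contig_1432299 (237 bp) was also near its 21° level, with 2.04, 1.77, and 2.20 CPM at 18° and 2.14, 1.86, and 2.08 CPM at 21°.

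At the other end, 4 contigs had covered less than 25% of the rise at 18° and so stepped up mainly between 18° and 21°. contig_1388091 (535 bp) had 0.668, 1.16, and 1.31 CPM at 12°, 1.00, 1.1, and 1.13 CPM at 18°, and 1.94, 1.97, and 2.41 CPM at 21°. contig_1581182 (539 bp) had 0.743, 0.887, and 0.651 CPM at 18° and 1.27, 1.54, and 1.76 CPM at 21°. The 18° libraries of contig_1388091 fell inside the range of its 12° libraries, and its log2 fold change at 18° against 12° was 0.07 ± 0.25 (SE, edgeR adjusted p = 0.947). The other 2 were contig_1425015, which covered 10.4%, and contig_467358, which covered 13.4%.

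A milder form of the same contrast was seen in simple_contig_15384 (3041 bp), which covered 27.9% of its rise at 18°. It had 7.09, 6.98, and 6.15 CPM at 12°, 8.24, 8.06, and 8.65 CPM at 18°, 12.4, 13.5, and 13.5 CPM at 21°, and 4.19, 4.47, and 4.53 CPM at 25°. No library of 1 of these 4 temperatures overlapped with those of another, and the step from 18° to 21° was larger than the spread between libraries. Over the 100 contigs, the median log2 fold change at 21° against 18° was 0.42, against 0.00 over all contigs tested, and 0 were called upregulated by edgeR (0.151% of all contigs tested) or by DESeq2, although 72 were higher at an unadjusted edgeR p-value below 0.05, against 4.04% of all contigs tested. The choice required high values of the 21° libraries, so these counts are a description. In the edgeR fit the upper quartile of these log2 fold changes was 0.56 and the highest 1.01, beside the limit of 1 for a call. Most of the 100 could therefore not be called at any p-value. The DESeq2 share over all contigs is not given here.

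A difference between 15° and 12° was also seen, a comparison that the choice did not direct because it treated both temperatures alike. This comparison was added after the data had been seen. Of the 100 contigs, 87 were higher at 15° than at 12° in the edgeR fit, against 48.8% of all contigs tested, and the median log2 fold change was 0.20 against -0.01. All 3 libraries at 15° lay above all 3 at 12° in 26 contigs, against 5.05% of the contigs tested. No contig of the whole table was called at 15° against 12° by edgeR, the 1 test run on this comparison. In either direction, 3818 of the 155951 contigs tested had an unadjusted edgeR p-value below 0.05. Of the 100, 14 had such a p-value and were higher at 15°. The share of all contigs in that direction alone is not given here, and cannot exceed the share in either direction. Means rising at each step from 12° to 15° to 18° to 21° were found in 87 of the 100 and in 9.95% of all contigs tested. The choice took low 12° and 15° libraries and high 21° libraries. The steps from 15° to 18° and from 18° to 21° are therefore set in part by it.

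The contigs with the most reads followed the same course, at 1.72-fold to 2.19-fold over their 12° and 15° mean at 21°. contig_268318 (2569 bp) had the highest level in CPM, with 18.1, 16.3, and 15.7 CPM at 12°, 25.6, 24.2, and 26.4 CPM at 18°, and 34.4, 38.0, and 32.1 CPM at 21°. Its 25° libraries held 14.8, 18.9, and 24.0 CPM, from below the 12° range in replicate 1 to nearly the 18° level in replicate 3. The 18° libraries were separate from those at 12° and 21°, and the log2 fold change at 18° against 12° was 0.63 ± 0.11 (SE, edgeR adjusted p = 0.0788). simple_contig_52590 (2303 bp) had 17.2, 12.9, and 15.8 CPM at 12°, 27.6, 18.8, and 25.3 CPM at 18°, 40.3, 33.1, and 29.0 CPM at 21°, and 11.4, 11.1, and 14.7 CPM at 25°. Its replicates spread more widely, and its log2 fold change of 0.66 ± 0.18 (SE) at 18° against 12° had an edgeR adjusted p of 0.233.

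The other 3 of the 5 most abundant were simple_contig_64852, contig_1372882, and simple_contig_18600, with means of 30.2, 23.6, and 22.1 CPM at 21°. At 25° they separated, with simple_contig_64852 at 1.13 times, simple_contig_18600 at 1.01 times, and contig_1372882 at 0.574 times the 12° and 15° mean in CPM. With TMM scaling they were at 1.46, 1.3, and 0.740 times. contig_1372882 had 14.4, 10.7, and 11.0 CPM at 12° and 6.83, 7.72, and 8.89 CPM at 25°, so that all 3 libraries at 25° lay below those at 12° in CPM, where the median contig was also lower at 25°.

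The 100 contigs differed most from one another at 25°. In CPM, the 25° mean ranged from 0.186 to 1.49 times the 12° and 15° mean, the upper end being set by the choice. It was below the 12° and 15° mean in 65 contigs and above it in 35. After TMM scaling the balance was turned around, with 36 contigs below and a median of 1.18-fold in place of 0.912-fold. The median contig among all 75716 with a mean of at least 1 CPM at 21° was at 0.745 in CPM, so the 100 contigs stood higher at 25° than the median contig did. The quartiles of those 75716 contigs were 0.542 and 1.05 at 25° and 0.914 and 1.08 at 18°. The 100 contigs had quartiles of 0.718 and 1.07 at 25°, so a wide spread at 25° was not particular to them. All 3 libraries at 25° lay below all 6 at 12° and 15° in 22 of the 100, against 32.9% of the contigs tested.

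**Figure D4:**
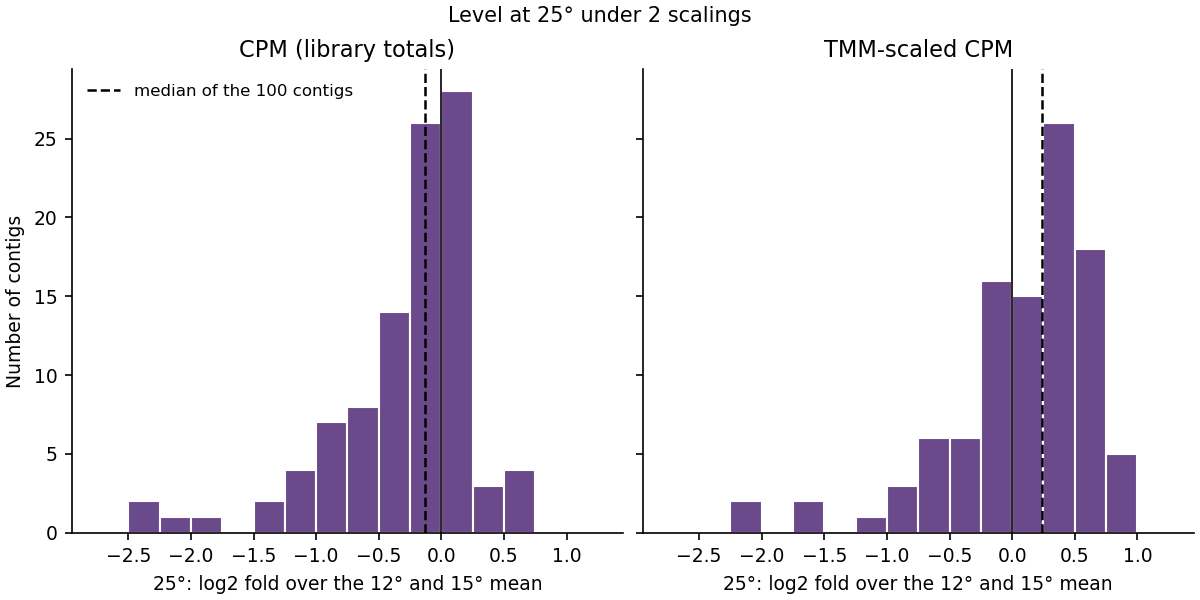
Number of contigs (y axis) by log2 fold of the 25° mean over the 12° and 15° mean (x axis) for the 100 contigs, in CPM (left) and in TMM-scaled CPM (right). The solid line marks no difference and the dashed line the median, which is 0.912-fold in CPM and 1.18-fold with TMM scaling. A tail of contigs far below their 12° and 15° level remains on the left in both.

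A small group was well below its control level at 25° under both scalings, as were many contigs outside the set. In CPM, 10 contigs were at or below 0.5 times the 12° and 15° mean, against 20.5% of the 75716 contigs with a mean of at least 1 CPM at 21°. With TMM scaling 5 were, against 10.2%, namely simple_contig_74566, contig_1786913, contig_1807794, contig_1426083, and contig_498280. simple_contig_74566 (454 bp) had 3.85, 3.40, and 3.93 CPM at 12°, 5.05, 5.39, and 4.39 CPM at 18°, 7.30, 7.41, and 7.15 CPM at 21°, and 0.528, 0.836, and 0.878 CPM at 25°. Its 25° libraries were far below every other library, at 0.186 times the 12° and 15° mean in CPM and 0.240 times with TMM scaling. contig_1786913 (767 bp) had 1.06, 1.32, and 0.938 CPM at 12°, 2.05, 1.85, and 2.78 CPM at 21°, and 0.149, 0.279, and 0.255 CPM at 25°. These last values rested on 9, 18, and 16 reads, and still did not overlap with those of any other temperature.

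contig_1426083 (240 bp) belongs with them. It had 2.67, 1.90, and 2.22 CPM at 12°, 3.81, 4.20, and 3.70 CPM at 18°, 5.76, 8.36, and 6.42 CPM at 21°, and 0.347, 0.681, and 1.07 CPM at 25°. Its 25° libraries spread more than those of the other temperatures in proportion to their mean, with replicate 1 the lowest, yet all 3 were below all of the rest. In contig_504952 (712 bp), one of the 10 in CPM, the 25° libraries held 0.528, 0.836, and 1.68 CPM against 2.10, 1.76, and 2.29 CPM at 12°, and replicate 3 came close to the lowest control.

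At the opposite end were contigs that kept part of their rise at 25°. contig_1419184 (449 bp) was at 1.49 times its 12° and 15° mean, with 0.304, 0.916, and 1.22 CPM at 12° and 1.49, 1.42, and 1.28 CPM at 25°. contig_523569 was at 1.48 times and contig_1423396 (376 bp) at 1.44 times. contig_1423396 had 1.28, 1.28, and 1.17 CPM at 12°, 3.08, 2.93, and 3.60 CPM at 21°, and 2.00, 2.09, and 2.03 CPM at 25°. In all 3 contigs the 25° libraries lay above the 12° libraries and below the 21° libraries. With TMM scaling they were at 1.93, 1.90, and 1.86 times, in the order named. They count as lost at 25° only by the limit of 1.5 on CPM, which 11 of the 100 exceeded once TMM scaling was used. When all conditions of the choice were applied to TMM-scaled CPM, 58 contigs met them, and only 39 of the 100 were among these.

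The 25° replicates did not behave alike. Replicate 3 was the highest of the 3 libraries at 25° in 65 of the 100 contigs and replicate 1 the lowest in 61. The choice used these libraries, and the same counts over all contigs are not given here. The median over the 100 contigs, as log2 over the 12° and 15° mean, was -0.35, -0.23, and 0.02 in CPM and -0.01, 0.20, and 0.36 with TMM scaling. All expressed contigs together showed less of this, with -0.46, -0.47, and -0.37. When replicate 3 at 25° was left out of the choice, 175 contigs met it in place of 115. The part of that library in the results was not tested further.

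Comparisons that the choice itself used are given as counts, beside their share over all contigs tested. At 21° against 12°, 29 of the 100 were called upregulated by edgeR, against 0.53% of all contigs tested. That count was 2 without replicate 2 at 12°, without replicate 1 at 21°, and without replicate 2 at 21°, 5 without replicate 3 at 12°, and 18 without replicate 3 at 21°. At 25° against 21°, 26 were called downregulated, against 3.38%, with 56 when library totals replaced TMM, 16 without replicate 1 at 21°, and 17 without replicate 2 at 21°. With library totals the median log2 fold change of all contigs tested also moved, from -0.03 to -0.35. All shares in this paragraph are from edgeR with TMM and no library left out, and none is given for the other settings. The 56 therefore cannot be set against the 3.38%. At 25° against 12°, 2 were called upregulated, contig_523569 and contig_1423396, against 8.61%, and 3 downregulated, contig_1807794, contig_1786913, and simple_contig_74566, against 6.05%. The 2 upregulated calls were not stable, with 0 when library totals replaced TMM, 0 with the replicate number as a block, 0 without replicate 2 at 12°, 1 without replicate 3 at 12° or replicates 2 or 3 at 25°, and 4 without replicate 1 at 12°. The medians of the log2 fold changes were 1.1 at 21° against 12°, -0.81 at 25° against 21°, and 0.35 at 25° against 12° with TMM. With library totals, the last of these was -0.01, while the median of all contigs tested moved from -0.09 to -0.44.

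The contigs that passed the threshold both on the way up and on the way down were few. In the whole table, 11 contigs were called upregulated at 21° against 12° and downregulated at 25° against 21°, comparisons that share the 21° libraries. The choice used both comparisons and so favored such contigs, which makes their number among the 100 a description. Of the 11, 9 were among the 100, namely contig_1807794, simple_contig_64531, contig_1426083, contig_488986, simple_contig_52590, contig_504952, simple_contig_15384, contig_475492, and simple_contig_74566. contig_475492 (2827 bp) had 6.18, 7.47, and 6.60 CPM at 12°, 11.1, 11.6, and 11.5 CPM at 18°, 16.5, 15.1, and 13.7 CPM at 21°, and 5.10, 6.24, and 5.39 CPM at 25°. Its 18° libraries, which differed among themselves by less than those of any other temperature, were 0.78 ± 0.10 (SE) above 12° on the log2 scale (edgeR adjusted p = 0.0350).

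Other sets were chosen by applying the same conditions to the libraries of 2 replicate numbers. With replicates 1, 2, and 3 set aside, 371, 344, and 470 contigs met them, and the 100 with the largest ratio were taken. These were read in the libraries of the remaining number. With replicate 1 set aside, 79 of the 100 were highest at 21° among the 12°, 15°, 21°, and 25° libraries of replicate 1, against 23.1% of the contigs that could have been chosen. With replicate 2 set aside the count was 75, against 23.6%, and with replicate 3 set aside it was 81, against 26%. In the libraries set aside the median log2 rise at 21° over 12° and 15° was 0.71, 0.81, and 0.86, against 1.15, 1.07, and 1.11 in the libraries used to choose. In these other sets the median rise was thus smaller where it had not been chosen for, and was present in each replicate set aside. The 100 contigs described here had no library set aside at 12°, 15°, 21°, or 25°, so the same cannot be said of them.

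The 18° level of these other sets was also read in the libraries set aside. The 18° library set aside was above the 12° and 15° libraries set aside in 61 of 100 contigs for replicate 1 (32.5% of the contigs that could have been chosen), in 74 for replicate 2 (33.9%), and in 88 for replicate 3 (37.1%). The level at 25° was less even, with median log2 values over 12° and 15° of -0.47 and -0.31 in the 25° libraries of replicates 1 and 2 when set aside, and 0.30 in that of replicate 3. The median over all expressed contigs in CPM was -0.46, -0.47, and -0.37 in the same libraries. The chosen contigs thus lay near that median in replicate 1 and above it in replicates 2 and 3. These values therefore show no fall at 25° particular to the chosen contigs. Values with TMM scaling are not given for these sets. The 3 sets of 100 shared 44, 47, and 41 contigs with the set described here.

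**Figure D5:**
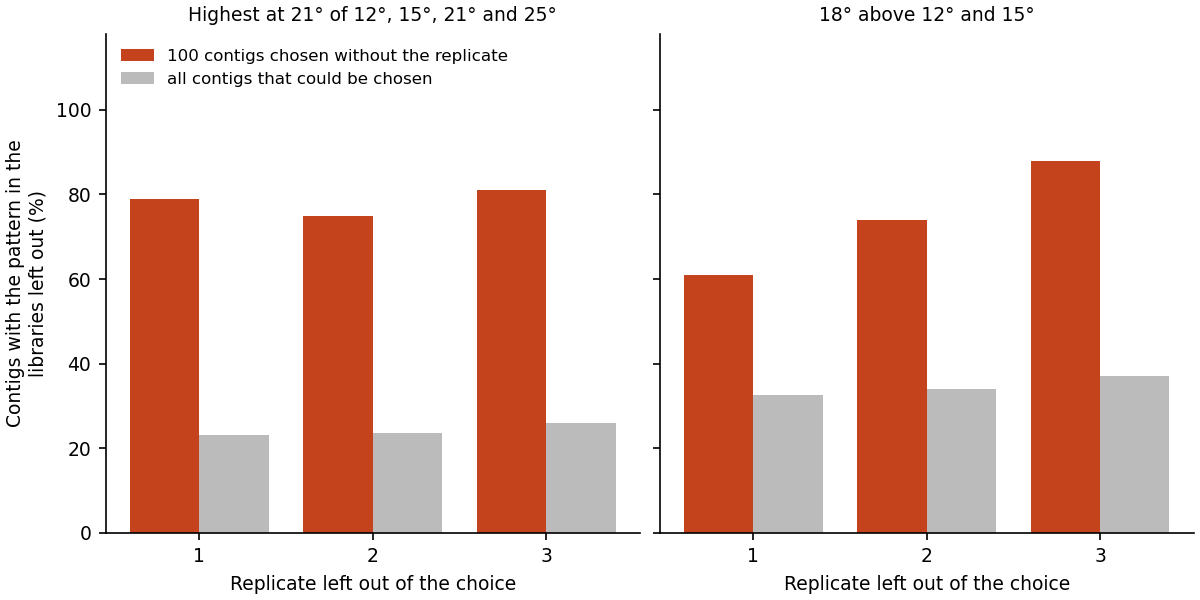
Percent of contigs (y axis, starting at 0) with the pattern in the libraries of a replicate that was left out of the choice (x axis), for the 100 contigs chosen from the other libraries (red) and for all contigs that could have been chosen (grey). Left, 21° highest of 12°, 15°, 21°, and 25°, in 79, 75, and 81 of 100. Right, 18° above 12° and 15°, in 61, 74, and 88 of 100.

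The limits of the set were not sharp. The last contigs inside were simple_contig_46299, simple_contig_64852, and simple_contig_6972, with ratios of 1.536, 1.514, and 1.502, and the first outside were simple_contig_55854, contig_465714, and contig_1416668, with 1.498, 1.495, and 1.492. By the margin of 1.3 over the highest other library, simple_contig_32677 at 1.301 and contig_1389215 at 1.302 were just inside, and simple_contig_52141 and simple_contig_3366, both at 1.298, just outside. simple_contig_6972 had 5.48, 4.95, and 5.76 CPM at 15°, 6.75, 7.01, and 5.86 CPM at 18°, 8.16, 8.64, and 7.52 CPM at 21°, and 2.90, 2.88, and 4.45 CPM at 25°. Even in this last contig the 18° libraries lay above the 15° libraries and below the 21° libraries, by small gaps.

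The contigs were also described by features other than their course over the temperatures. Their length had a median of 964 bp (range 169 to 4315) against 924 bp for the 75716 contigs with a mean of at least 1 CPM at 21°. Per length, as RPKM, the deposited reads scaled by contig length and library total, their 21° mean, which rests on reads the choice had used, had a median of 4.46 (range 0.481 to 121) against 5.64. The replicates at 18° varied by a median of 10.2% (coefficient of variation) against 8.59%. Names beginning with "simple", 1 of 2 series of contig names in the table, belonged to 29 of the 100 and to 44.8% of those 75716 contigs.

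Most reads of these contigs aligned to 1 contig only, and this was not particular to them. In the 100, the share of unique reads had a lower quartile of 99.9% and a median of 100%. Both were the same in the 75716 contigs with a mean of at least 1 CPM at 21°. All reads were unique in 60 of the 100, and the share was at least 95% in all but contig_664521 (170 bp), which had the lowest, 65.6%. Its total reads gave 10.4, 10.8, and 9.80 CPM at 12°, 15.9, 15.1, and 17.1 CPM at 18°, 20.8, 22.0, and 18.9 CPM at 21°, and 10.8, 13.7, and 13.9 CPM at 25°. It was also the contig with the highest level per length, at 121 RPKM at 21°, and its reads may be shared with a near-identical copy. Counting unique reads only, 117 contigs met the conditions in place of 115, and all 100 contigs described here were among them.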

How the data were processed

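Gill RNA was sequenced as paired reads from 15 libraries, 3 per temperature, grouped by the temperature and replicate in their labels. Per the paper's methods, the authors used Cutadapt for trimming (Phred cutoff 20) and CLC Genome Workbench for the assembly of contigs and the alignment. The deposited counts per contig are whole numbers of total and of unique reads, not normalized. The deposited RPKM values are the authors', from total reads and contig length. Summed counts per temperature exceed the number of filtered reads that the study states, and how a read was counted is not given in the sources used here. Of the 98 columns, 29 repeat per-library expression values or lengths and 16 hold the authors' comparisons with 12° (differences, fold changes, statistics, and p-values), and none of these was used.

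The contigs and the lists were chosen with earlier results of these data known. Tests covered the 155951 contigs that reached 10 reads in 3 or more libraries (all 100 contigs among them), in fits of the 6 libraries of 2 temperatures with edgeR 4.0.16 (R 4.3.3), TMM, and the quasi-likelihood F-test. A call needed a Benjamini-Hochberg adjusted p-value below 0.01 over all contigs tested and a fold change above 2. SE is the log2 fold change over the square root of F. Named were the 10 largest ratios, the 5 highest means at 21°, calls at 18° against 12° (none), the 3 lowest and 3 highest levels at 25°, the extremes of the unique share, and the contigs on both sides of place 100. Others were singled out after their values were seen. Alternatives were library totals, DESeq2 1.42.0 size factors and test, 1 fit of all libraries, other count filters, unique reads, a replicate block, each library left out, and other settings of the choice. The methods were tested on simulated data. Python 3.11.15, numpy 2.4.6, and pandas 2.3.3 were used.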

Additional observations from a re-analysis of the deposited data

How the results depend on the processing

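In every setting run, 99 or 100 of the contigs were higher at 18° than at 12°, and the median share of the 21° rise reached at 18° stayed between 53.8% and 56.4%. The number of the 100 contigs called at 18° against 12° went from 0 to 9 with DESeq2 and 3 with all 15 libraries in 1 fit, and ranged from 0 to 3 with 1 library left out. In the settings run for single contigs, which did not include DESeq2's test or the fit of all libraries, the 220 alternative values of the 22 named contigs at 18° against 12° were above 0. Among them contig_523569 alone passed the threshold, without replicate 1 at 12° (log2 fold change 1.61, edgeR adjusted p = 0.00287, where its other alternatives gave adjusted p-values from 0.0204 to 0.225). At 21° against 12°, 29 became 61 with DESeq2, 47 with all 15 libraries, 17 with library totals, and 2 to 23 with 1 library left out. The lowest value, 2, came without replicate 2 at 12° and without replicates 1 or 2 at 21°. At 25° against 21°, 26 became 56 with library totals and 16 to 28 with 1 library left out. At 25° against 12°, 2 upregulated became 0 with library totals, 0 with the replicate block, and 0 to 4 with 1 library left out, and 3 downregulated became 5 with all 15 libraries. Apart from DESeq2 at 18° against 12°, the shares of all contigs tested under these other settings are not given. A change in a count may therefore not be particular to the 100, and its cause was not tested.

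Replicates were run on 3 consecutive days, and that the number marks the day is not stated. Same-numbered libraries deviated from their group means with r = 0.539, 0.341, and -0.143 at 18° and 12°. In no comparison was r above 0.1 in every pair, and the fits above were run without a block. These r values cannot exclude an effect of the day. With the replicate block, 0 of the 100 contigs were called upregulated at 18° against 12°, 38 upregulated at 21° against 12°, and 23 downregulated at 25° against 21°. The shares of all contigs tested in the fits with the block are not given here. The median at 15° against 12° was 0.19 with the block and 0.21 with library totals, settings added after seeing the data.

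The set depends on its scaling. Of the 115 contigs, the count became 58 with TMM scaling (39 shared with the 100) and 56 with DESeq2 size factors (38 shared), 25 with a margin of 1.5, 3023 with a margin of 1.0, 51 with a minimum of 5 CPM, and 120 to 253 with 1 library left out. Left out at 21°, replicates 1, 2, and 3 gave 253, 193, and 237. The lowest read number was 9, in 1 library of contig_1786913 at 25°, where the precision of a single value is low.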
